A study of Mus musculus with 6 samples.

Results

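Genes of the lysosome were examined in macrophages from mice that carry a knockout of Cd28 (Cd28 KO) and from wild-type mice (WT). They comprised acid hydrolases, proteins of the lysosomal membrane and subunits of the proton pump. The 35 genes were taken from a list of symbols, cathepsins left out, and each symbol was matched to its Entrez number in the deposited values. All 35 were listed in all 6 libraries, among 14574 genes listed in any library, and all 35 were among the 10172 genes tested. By role they fell into 9 hydrolases, 3 soluble lysosomal proteins that are not hydrolases, 6 membrane proteins, 2 transcription factors and 15 genes of the proton pump.

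The macrophages were grown from femur marrow of mice aged 6 to 10 weeks, for 7 days with human M-CSF (25 ng/ml) added every 2 days, and received no other treatment. One group came from Cd28 KO mice and the other from C57BL/6J mice, with 3 libraries each. The labels name neither the knockout allele nor the sex of the mice, and they do not say whether the numbered samples were separate animals, so each p-value reflects only how these samples vary, which may be technical. Values were FPKM, a fragment count divided by transcript length and library size, which allows levels of genes to be compared per length. The read depth behind them is unknown.

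Lysosomes break down material taken up by phagocytosis and endocytosis, as well as worn-out parts of the cell, and they are abundant in macrophages. Their hydrolases work at acid pH, which is kept by the V-ATPase, a rotary pump whose V1 sector splits ATP in the cytosol and whose V0 sector carries protons across the membrane. Many lysosomal genes share a short promoter sequence bound by the transcription factors Tfeb and Tfe3, which enter the nucleus when mTORC1 signalling at the lysosome is low.

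Cd28, the gene named in the labels, was listed in every library. Cd28 stood at 25.7, 24.2 and 26.9 FPKM in Cd28 KO and at 38.2, 30.1 and 51.1 FPKM in WT, so the groups did not overlap and the Cd28 KO mean was 64.3% of the WT mean. The values do not show which part of the transcript was read, so they neither establish nor contradict the knockout, and the group name Cd28 KO follows the labels. Replicate 3 stood apart in both genotypes. Deviations from the group mean correlated at 0.783 across genes between both replicate 3 libraries, and at -0.776 to -0.571 between replicate 3 of WT and the other Cd28 KO libraries. The deviations of a group cancel out for each gene, so the negative values follow from the first value and are no separate evidence. Results are therefore also given within replicates 1 and 2 and within replicate 3. The macrophage markers Csf1r, Adgre1, Cd68, Mertk, Fcgr1 and Itgam were listed in every library. Their sum ran from 3222 to 3607 FPKM over the Cd28 KO libraries and from 3545 to 3679 over the WT libraries. The highest of them was Cd68, with means of 1959 FPKM in Cd28 KO and 2159 in WT. Cd68 is also counted among the further lysosomal membrane proteins below. Means were also lower in Cd28 KO for Adgre1 (279.5 against 291.6) and Itgam (171 against 185). They were higher for Csf1r (892 against 875.5), Fcgr1 (111 against 103) and Mertk (6.38 against 5.94). The sum of 4 monocyte markers was 2874 to 4231 FPKM in Cd28 KO against 2365 to 2835 in WT. Nearly all of it was S100a4, which macrophages also express, at 2843 to 4196 FPKM against 2337 to 2810. Plac8 was low but likewise higher in Cd28 KO without overlap, at 6.3, 7.24 and 9.44 FPKM against 2.63, 2.28 and 5.86. Ccr2 had a higher mean in Cd28 KO (26.1 against 21.3 FPKM) with overlapping groups. Ly6c2 stayed at or below 1.79 FPKM, also with overlap. The part of monocytes in the values below was not tested. Summed markers of dendritic cells, neutrophils, T cells, B cells and stromal cells stayed at or below 8.27 FPKM per list and library.

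Lysosomal transcripts were abundant in both genotypes, and none of the 35 genes was called different between them. The 35 genes together held 3.07%, 3.31% and 2.93% of summed FPKM in the Cd28 KO libraries and 3.53%, 3.56% and 3.31% in WT, so that the groups met at 3.31%. Their mean sum was 17060.1 FPKM in Cd28 KO and 18320.5 in WT. That difference was mostly the level of Psap (3885 against 4475 FPKM) and Gpnmb (2118 against 2682). Fewer cells expressing a gene and less RNA per cell cannot be told apart in such bulk samples. With limma on log2(FPKM + 1), each of the 35 had an adjusted p of 0.9995, where the threshold was 0.05, and 0.0197% of all tested genes were called. With the replicate number as a block, 0 of 35 were called, against 0.177% of all tested genes. Before adjustment, 1 of the 35 (Gpnmb) had a limma p under 0.05, against 2.49% of tested genes, and 3 of 35 did with the block, against 7.89%.

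Of the 35 log2 differences (Cd28 KO minus WT), 24 were negative and 11 positive, with a median of -0.02 against -0.003 over all tested genes. The counts were 27 and 8 on the TPM scale, and 18 and 17 without Cd28 KO replicate 2. Of all 10172 tested genes, 5174 were negative and 4998 positive, which became 6633 and 3539 on the TPM scale. The lowest difference of the 35 was -0.41 for Atp6v0a1 and the highest 0.18 for Atp6v1g1. The groups did not overlap for 2 of 35 genes, Gpnmb and Lipa, both lower in Cd28 KO, against 2.87% of tested genes. No member was higher without overlap, against 3.84%. Between libraries of the same number, 8 of 35 were lower in all 3 pairs, against 13.3% of tested genes, and 2 were higher in all 3, against 15% of tested genes.

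**Figure D1:**
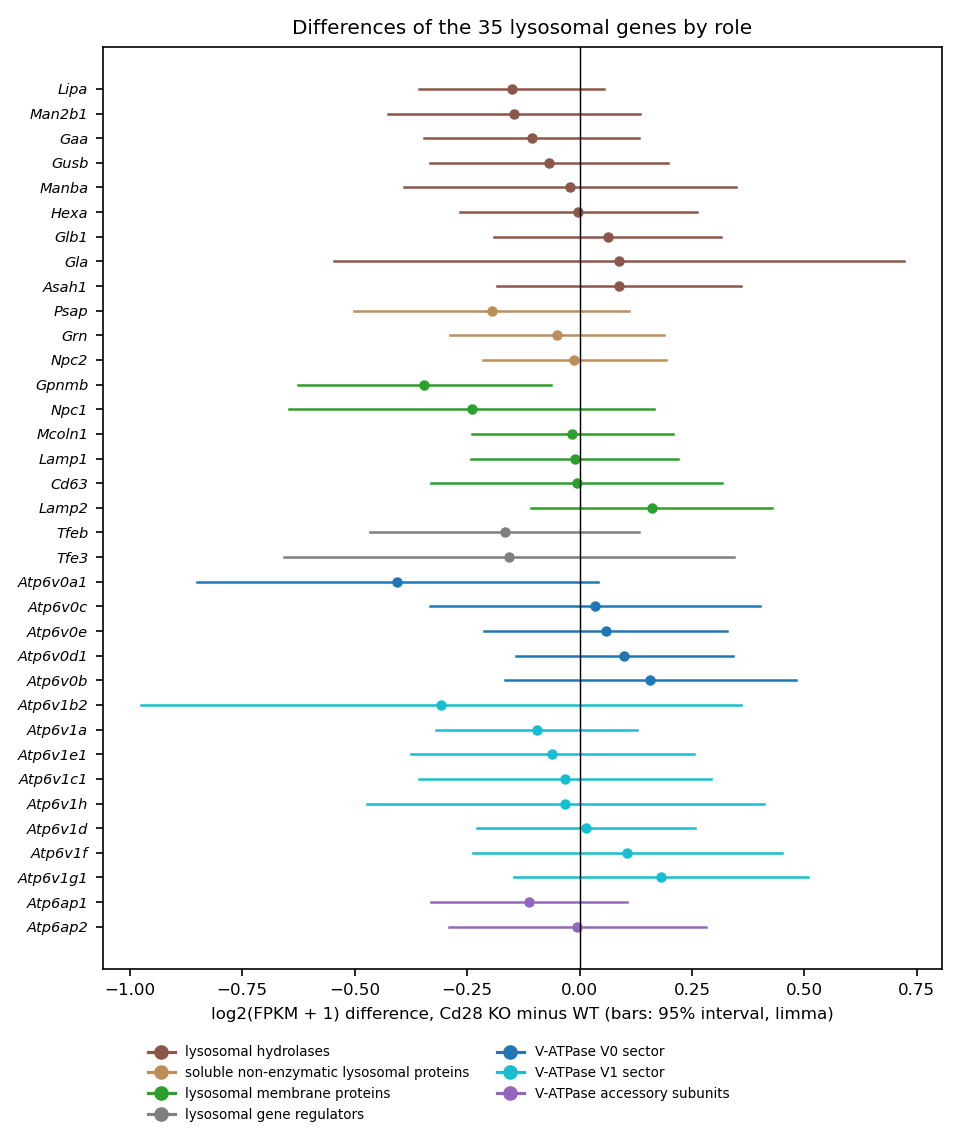
Difference of log2(FPKM + 1), Cd28 KO minus WT, for each of the 35 genes (dots), with 95% intervals from limma (bars), coloured by role. Intervals cross 0 for every gene except Gpnmb, whose interval ran from -0.63 to -0.06 before adjustment over all genes.

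Both transcription factors had a lower mean in Cd28 KO, with overlapping groups. Tfeb stood at 38.3, 36.4 and 36.7 FPKM in Cd28 KO and at 43.8, 46.9 and 35.5 in WT. In replicates 1 and 2 both Cd28 KO values of Tfeb lay below both WT values, while the lowest value of all 6 was WT replicate 3. The log2 difference of Tfeb was -0.17 ± 0.13 (SE), at -0.27 within replicates 1 and 2 and 0.05 within replicate 3. Tfe3 stood at 57.1, 65.6 and 45.2 FPKM against 70.3, 73.0 and 46.0, lower in Cd28 KO in each same-numbered pair but with a wider distance between replicate 3 and the others than between genotypes. Its log2 difference was -0.16 ± 0.21 (SE).

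The sequence that Tfeb and Tfe3 bind has the E-box CACGTG at its core, and its most typical form extends this to TCACGTGA. RefSeq promoters (GRCm38.p6, from 250 bases before to 50 after the transcription start, any start of a gene counted, both motifs reading the same on both strands) were on hand for 29 of the 35 genes. CACGTG was in 9 of these 29 promoters (31%), against 8.09% of 27025 genes. TCACGTGA, which contains CACGTG, was in 5 (17.2%), against 1.12%. The 27025 genes were not limited to those tested here, while all 35 genes were tested, so the sets compared are unlike. In the promoters of other lysosomal genes CACGTG was in 14 of 60 (23.3%) and TCACGTGA in 4 (6.67%). The 9 genes were Lamp1, Mcoln1, Gla, Glb1, Gaa, Atp6v0b, Atp6v0d1, Atp6v0e and Atp6v1a. Stretches of 5 of them are shown, 4 because their longer form begins before a start of the gene and Lamp1 for its run of the shorter one. Atp6v0e, where the longer form begins after the start, is left out. The motif is in capitals, 5′ to 3′ on the strand of the gene:
Gla, chrX:134601182-134601211, minus strand: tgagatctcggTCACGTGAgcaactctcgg
Gla, chrX:134601215-134601244, minus strand: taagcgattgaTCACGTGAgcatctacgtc
Mcoln1, chr8:3500462-3500491, plus strand: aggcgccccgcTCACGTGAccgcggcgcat
Atp6v1a, chr16:44139373-44139402, minus strand: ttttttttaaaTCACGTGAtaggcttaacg
Atp6v0d1, chr8:105566050-105566079, minus strand: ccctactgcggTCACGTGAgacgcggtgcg
Lamp1, chr8:13159095-13159160, plus strand: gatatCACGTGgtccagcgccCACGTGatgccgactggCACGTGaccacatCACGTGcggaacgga

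The Lamp1 stretch ends at the base before the transcription start and holds 4 copies of CACGTG. The motif of Mcoln1 begins 46 bases before the start, that of Atp6v1a 132, that of Atp6v0d1 4, and those of Gla 195 and 228. The motif of Atp6v0d1 thus runs across the start. The distance for Atp6v1a is counted from a start inside the gene. Its listed span on the minus strand opens at 44139702, upstream of the motif. The 9 genes with CACGTG had a median log2 difference of 0.06, with 5 positive and 4 negative, and ranged from -0.11 to 0.16. On the TPM scale their median was -0.002, with 4 positive and 5 negative, and it was -0.01 without Cd28 KO replicate 3, -0.004 without WT replicate 1 and -0.02 without WT replicate 2. The 20 genes without it had a median of -0.05, with 4 positive and 16 negative, and ranged from -0.41 to 0.16. The median of these 20 was -0.12 after TPM scaling and -0.13 with quantile normalization, each with 2 positive and 18 negative. It was -0.02 without WT replicate 1. With median centring 7 of the 20 were positive and 13 negative. Without WT replicate 2 the order of both sets turned. The 20 genes then had a median of -0.016, with 9 positive and 11 negative, and the 9 genes with CACGTG one of -0.023. A match of letters does not show binding, and the difference between both sets was not tested.

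The hydrolases differed little between genotypes. Of 9, limma called 0, with 6 differences negative, 3 positive (5 and 4 with median centring) and a median log2 of -0.02. Lipa (Entrez 16889, chromosome 19, 34492316 to 34527474, GRCm38), the acid lipase that frees cholesterol and fatty acids from lipoproteins, was the 1 hydrolase without overlap. Lipa stood at 492, 483 and 440 FPKM in Cd28 KO and at 528, 531 and 511 in WT, so that every Cd28 KO library lay below every WT library by a small margin. Its mean was 472 ± 28.1 FPKM against 523 ± 10.8 (SD, n = 3 each), 90.1% of WT, with a log2 difference of -0.15 ± 0.09 (SE) and a limma adjusted p of 0.9995.

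Man2b1, a mannosidase that trims glycans of broken-down glycoproteins, was lower in Cd28 KO in each same-numbered pair, at 216, 217 and 171 FPKM against 233, 223 and 210. Gaa, which splits glycogen, stood at 45.7, 52.8 and 49.1 FPKM against 55.7, 50.4 and 52.9, with overlapping groups. Hexa, a subunit of the hexosaminidase that degrades gangliosides, was the most abundant hydrolase of the 9 per length and had nearly equal means, 825 ± 83.2 FPKM in Cd28 KO and 825 ± 58.6 in WT. The 95% interval of its log2 difference ran from -0.27 to 0.26, which does not show that the genotypes were alike.

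Gla, the galactosidase missing in Fabry disease, varied more between replicates than between genotypes. It stood at 61.3, 57.1 and 90.2 FPKM in Cd28 KO and at 52.1, 53.3 and 94.3 in WT, so both replicate 3 libraries were high, at 1.52 and 1.79 times the mean of replicates 1 and 2 of their group. The ceramidase Asah1 and the galactosidase Glb1 had log2 differences of 0.09 and 0.06, and the glucuronidase Gusb and the mannosidase Manba of -0.07 and -0.02. Their groups overlapped.

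The soluble proteins that are not hydrolases included the most abundant transcript of the set by mean FPKM. Psap (Entrez 19156, chromosome 10, 60277628 to 60302600), the precursor of the saposins that present lipids to hydrolases, ranked 8 among all listed genes by mean FPKM. Psap stood at 3823, 4104 and 3729 FPKM in Cd28 KO and at 4793, 4859 and 3774 in WT. WT replicates 1 and 2 were thus the high libraries, and the replicate 3 libraries were nearly level. The mean was 3885 ± 195 FPKM against 4475 ± 609 (SD, n = 3 each), and the log2 difference was -0.20 ± 0.13 (SE), at -0.28 within replicates 1 and 2 and -0.02 within replicate 3. Grn, the precursor of granulins, stood at 1496, 1756 and 1716 FPKM against 1778, 1684 and 1668, and Npc2, which binds cholesterol in the lumen, at 408, 372 and 395 against 401, 406 and 378. In both genes the groups overlapped, with log2 differences of -0.05 and -0.01.

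Of the 6 membrane proteins limma called 0, with 5 differences negative and 1 positive (4 and 2 with median centring). Gpnmb had the lowest difference among them and the smallest unadjusted p of all 35 genes. Gpnmb (Entrez 93695, chromosome 6, 49036518 to 49058182) encodes a glycoprotein of lysosomes and melanosomes that is high in lipid-laden macrophages. It stood at 2163, 2332 and 1858 FPKM in Cd28 KO and at 2686, 2865 and 2496 in WT. Every Cd28 KO library lay below every WT library, and in both groups replicate 3 was lowest. The Cd28 KO mean was 79% of WT, and the log2 difference was -0.34 ± 0.12 (SE), at -0.30 within replicates 1 and 2 and -0.43 within replicate 3. Its unadjusted limma p was 0.0228 and its adjusted p 0.9995, or 0.63 with the replicate block.

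Npc1, the membrane partner of Npc2 in cholesterol export, stood at 60.6, 70.8 and 44.1 FPKM in Cd28 KO and at 68.7, 64.8 and 70.6 in WT. Cd28 KO replicate 3 was the low library, and within replicates 1 and 2 the log2 difference was -0.03, against -0.67 within replicate 3. Lamp2, a heavily glycosylated protein that lines the lysosomal membrane and acts in autophagy, went the other way, at 348, 327 and 369 FPKM against 304, 279 and 354. It was higher in Cd28 KO in each same-numbered pair, with overlapping groups and a log2 difference of 0.16 ± 0.11 (SE). Its relative Lamp1 stood at 1232 ± 90.1 FPKM against 1239 ± 58.9, the tetraspanin Cd63 at 1210 ± 163 against 1213 ± 131, and the calcium channel Mcoln1 at 39.8 ± 0.528 against 40.3 ± 2.06.

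Summed over the 6 membrane proteins, the level was 5198, 5116 and 4703 FPKM in Cd28 KO and 5636, 5712 and 5317 in WT. Without Gpnmb the sums were 3035, 2784 and 2845 FPKM against 2950, 2847 and 2821, and the groups overlapped. The difference between the sums was thus mostly the level of Gpnmb.

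**Figure D2:**
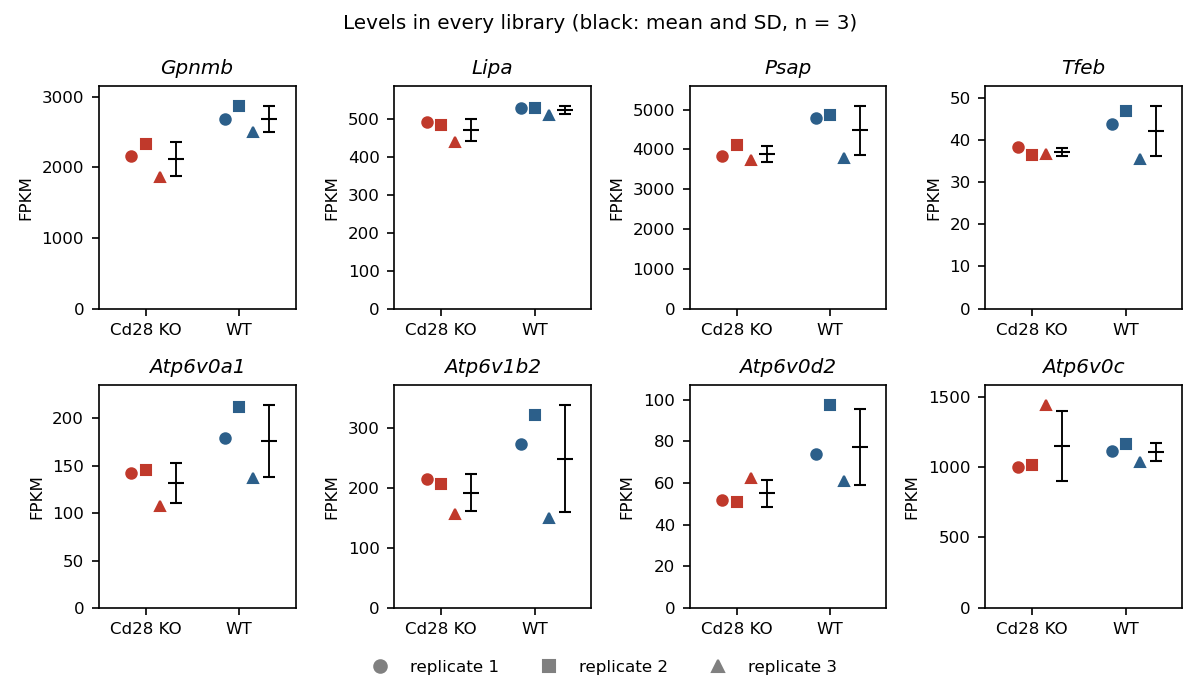
FPKM of 8 genes in every library, by genotype (colour) and replicate (symbol), with the mean and SD of each group in black and axes from 0. Gpnmb and Lipa do not overlap between genotypes, while Psap, Tfeb, Atp6v1b2 and Atp6v0d2 are high in WT replicates 1 and 2 and not in WT replicate 3.

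The V-ATPase was expressed as one form of most subunits, with more than 1 form of the subunits a and d. Among the 15 pump genes the proteolipid Atp6v0c, which forms most of the proton-carrying ring, was the highest per length, with a mean of 1128 FPKM over all libraries, and Atp6v1h, a regulatory subunit of V1, the lowest, at 49.2 FPKM. In between, Atp6v0b, the other ring proteolipid listed here, stood at 399 FPKM, Atp6v1f at 358 and Atp6ap1 at 304. These last 3 were spread over 327 to 473, 302 to 417 and 283 to 339 FPKM, so that neighbours in this order did not differ beyond the spread between libraries. Atp6v0e followed at 243 FPKM, Atp6v1b2 at 221, Atp6v1g1 at 188 and Atp6v0d1 at 169, again with overlapping ranges. The neighbours Atp6v1a (157 FPKM), Atp6v0a1 (154), Atp6v1e1 (129), Atp6v1c1 (126), Atp6v1d (114) and Atp6ap2 (111) likewise overlapped. Alternative forms with a narrower tissue range were absent or low. Atp6v0a4, Atp6v1b1, Atp6v1c2, Atp6v1e2 and Atp6v1g3 were listed in 0 libraries, and Atp6v0e2 and Atp6v1g2 did not exceed 0.47 and 3.73 FPKM.

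**Figure D3:**
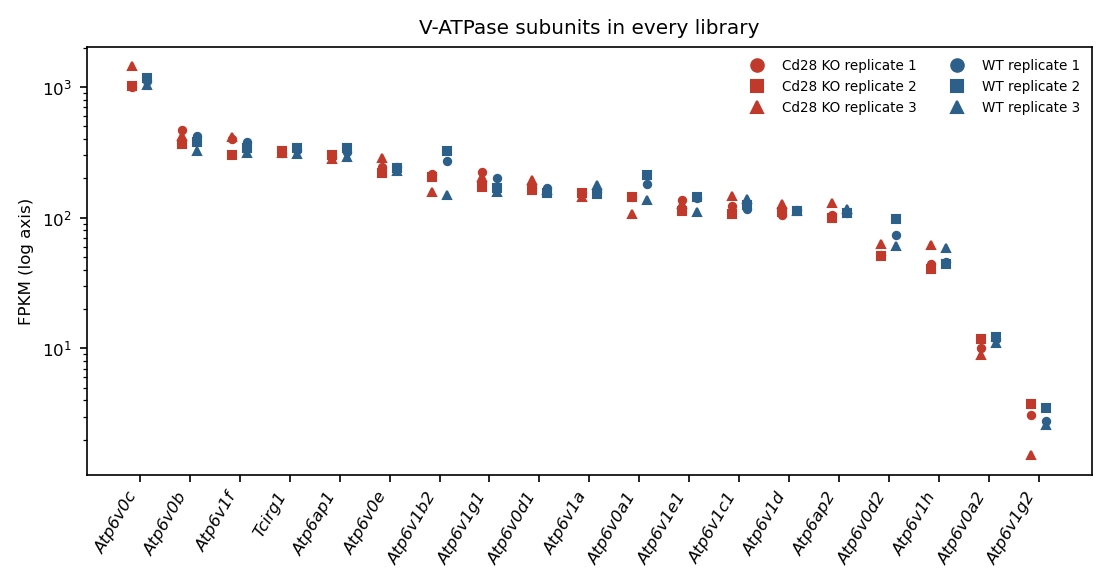
FPKM on a log axis of the 15 pump genes and 4 alternative subunits (Tcirg1, Atp6v0a2, Atp6v0d2 and Atp6v1g2) in every library, ordered by mean level, with genotype as colour and replicate as symbol. Levels run from 1128 FPKM on average for Atp6v0c to 2.86 for Atp6v1g2, and libraries of both genotypes overlap for every subunit.

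Atp6v0a1, the widely used form of the membrane subunit a, had the lowest difference of all 35 genes. Atp6v0a1 (Entrez 11975, chromosome 11, 101009422 to 101063719) stood at 143, 145 and 107 FPKM in Cd28 KO and at 180, 212 and 137 in WT. Cd28 KO was lower in each same-numbered pair, and the groups overlapped because WT replicate 3 lay below Cd28 KO replicates 1 and 2. The mean was 132 ± 21.2 FPKM against 176 ± 37.5 (SD, n = 3 each), 74.9% of WT. Its log2 difference was -0.41 ± 0.19 (SE), at -0.43 within replicates 1 and 2 and -0.35 within replicate 3. The limma adjusted p was 0.9995 without and 0.254 with the replicate block, and it ranged from 0.112 to 1 over 17 alternative settings.

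The other 4 V0 subunits had positive differences, each larger within replicate 3 than within replicates 1 and 2. On the TPM scale (each library rescaled to the same total) Atp6v0c and Atp6v0e turned negative, and with quantile normalization Atp6v0c did. Atp6v0c stood at 999, 1011 and 1437 FPKM in Cd28 KO and at 1117, 1165 and 1039 in WT, so that Cd28 KO was lower in replicates 1 and 2 and higher in replicate 3. Atp6v0b stood at 473, 365 and 423 FPKM against 422, 382 and 327, and Atp6v0d1, which joins the central stalk to the ring, at 168, 162 and 194 against 170, 156 and 162. The log2 differences were 0.03 for Atp6v0c, 0.16 ± 0.14 for Atp6v0b and 0.10 ± 0.10 for Atp6v0d1 (SE), and 0.06 for Atp6v0e.

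In the V1 sector, Atp6v1b2 (Entrez 11966, chromosome 8, 69088736 to 69113718), the form of the nucleotide-binding subunit B found in macrophages and most other cells, showed the widest gap in replicates 1 and 2. Atp6v1b2 stood at 215, 207 and 157 FPKM in Cd28 KO and at 274, 323 and 150 in WT. WT replicates 1 and 2 were the high libraries, and both replicate 3 libraries were low, at 0.746 and 0.501 times the mean of the other 2 of their group. The log2 difference was -0.31 ± 0.28 (SE), at -0.50 within replicates 1 and 2 and 0.07 within replicate 3. With replicates 1 and 2 alone its limma adjusted p was 0.0859, the lowest of any of the 35 genes in any setting, and it ranged up to 1.

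The catalytic subunit Atp6v1a, which splits ATP together with B, stood at 154, 154 and 145 FPKM against 157, 152 and 177. Atp6v1g1, part of the outer stalk, was higher in Cd28 KO in each same-numbered pair, at 224, 171 and 204 FPKM against 201, 168 and 159, with a log2 difference of 0.18 ± 0.14 (SE) and overlapping groups. Atp6v1f stood at 400, 302 and 417 FPKM against 377, 342 and 313, and its log2 difference of 0.11 was -0.05 within replicates 1 and 2. The stalk and regulatory subunits Atp6v1c1, Atp6v1d, Atp6v1e1 and Atp6v1h had log2 differences of -0.03, 0.01, -0.06 and -0.03. Atp6v1h was the 1 gene of the 35 on chromosome 1, where Cd28 lies.

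The accessory subunits sit in the membrane next to V0. Atp6ap1 stood at 290, 304 and 283 FPKM in Cd28 KO and at 317, 339 and 294 in WT, lower in each same-numbered pair, with a log2 difference of -0.11 ± 0.09 (SE). Atp6ap2, also known as the prorenin receptor, stood at 105, 99.2 and 130 FPKM against 109, 109 and 116, with a log2 difference of -0.01.

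Subunits a and d were split between forms, and their shares were examined after the values had been seen. Tcirg1, the a3 form of lysosomes and of the osteoclast border, made up 67.1%, 67.5% and 72.8% of the summed a-subunit FPKM in Cd28 KO and 63.4%, 60.6% and 67.5% in WT. Atp6v0a1 made up 30.8%, 30.04% and 25.2% against 34.3%, 37.3% and 30.1%, and Atp6v0a2 2.23% and 2.27% on average. The share of Atp6v0a1 was lower, and that of Tcirg1 higher, in Cd28 KO in each of 3 same-numbered pairs. Without regard to pairs, the Atp6v0a1 share overlapped between groups, with p = 0.2 in a two-sided exact permutation test. Tcirg1 itself stood at 311, 327 and 311 FPKM against 332, 344 and 307.

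Atp6v0d2, the form of subunit d that rises in osteoclasts and fusing macrophages, stood at 51.8, 50.9 and 62.5 FPKM in Cd28 KO and at 73.8, 97.2 and 61.1 in WT. Its log2 difference of -0.46 ± 0.18 (SE) had an adjusted p of 0.9995 in limma, and it was -0.71 within replicates 1 and 2 and 0.03 within replicate 3. Atp6v0d2 made up 23.5%, 23.96% and 24.3% of the summed d-subunit FPKM in Cd28 KO and 30.3%, 38.4% and 27.3% in WT. The shares did not overlap. The two-sided exact permutation test gave p = 0.1, which is as small as 3 against 3 can give, or 0.4 after Benjamini-Hochberg adjustment over the 4 subunits with more than 1 listed form. Of 6 osteoclast markers, Calcr was listed in 0 libraries, and the list's sum lay between 18.7 and 32.0 FPKM in the Cd28 KO libraries and between 28.0 and 43.1 in the WT libraries. The part of such cells in the share of Atp6v0d2 was not tested.

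**Figure D4:**
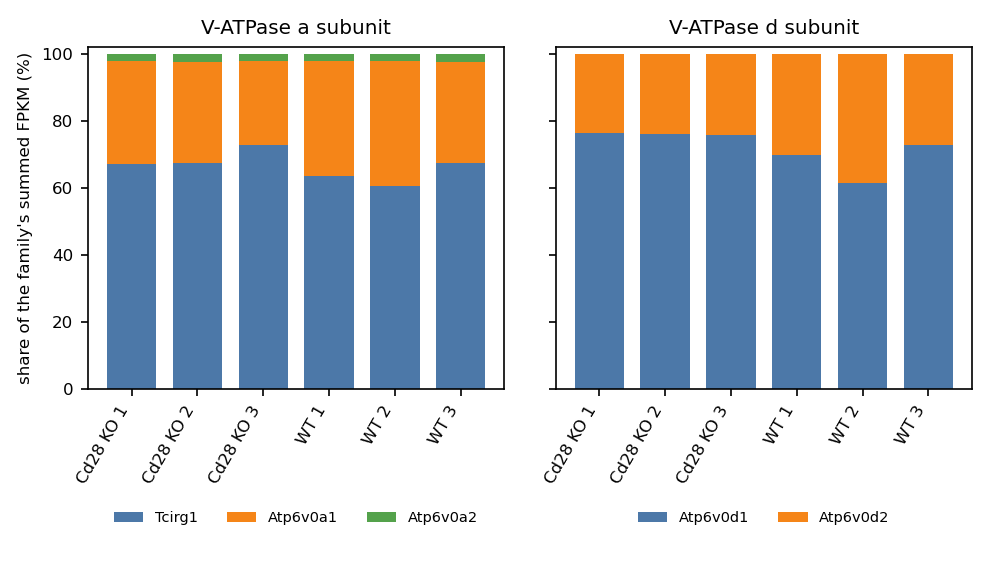
Share of each form in the summed FPKM of V-ATPase subunit a (left) and d (right), in percent, per library. The Atp6v0d2 share is 23.5% to 24.3% in the 3 Cd28 KO libraries and 27.3% to 38.4% in the 3 WT libraries.

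On the FPKM scale 9 of 15 pump genes were lower in Cd28 KO within replicates 1 and 2 and higher within replicate 3, which held for 5 on the TPM scale, 7 with quantile normalization and 11 with median centring. Within replicates 1 and 2 the difference was negative for 12 of 15 pump genes (median log2 -0.09), while the median of all tested genes was 0.03. Within replicate 3, 12 of 15 had a positive difference (8 on the TPM scale and 10 with quantile normalization), with a median of 0.18 against -0.05 for all tested genes. Hydrolases had medians of 0.02 and -0.11 in the same order, and membrane proteins of -0.001 and -0.14, so that the median of the pump was above both of theirs in replicate 3 and below both in replicates 1 and 2. A single pair of libraries stands behind each replicate 3 value, and the difference between replicates was not tested.

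Scaling changed these medians more in replicate 3 than in replicates 1 and 2. On the TPM scale the median of all genes within replicate 3 moved from -0.05 to -0.21, and that of the pump genes from 0.18 to 0.01. Relative to the median of all genes, 12 of 15 pump genes lay above it in replicate 3 and 13 of 15 below it in replicates 1 and 2. Rescaling a library by a constant leaves these counts nearly fixed, and quantile normalization, which does not, gave 10 and 11. Without any split by replicate, the pump had 8 negative and 7 positive differences, which became 11 and 4 on the TPM scale, 10 and 5 with quantile normalization and 7 and 8 with median centring.

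Among the pump genes, longer coding sequences went with lower differences within replicate 3. The Spearman correlation of coding length with the log2 difference was -0.9 over the 15 pump genes, -0.78 over all 35 and -0.56 over the tested genes of known length (98.3% of 10172). It was weaker over the 20 genes outside the pump, at -0.39. Among these it was -0.03 over the 9 hydrolases (0.2 with quantile normalization) but -0.71 over the 6 membrane proteins (-0.6 with quantile normalization). Within replicates 1 and 2 it was -0.44 over the pump genes, -0.15 over all 35 and 0.01 over the tested genes. All points of one panel share the same libraries, so these are descriptions. Over all tested genes, the median difference within replicate 3 fell from 0.19 in the shortest class (111 to 738 bp) to -0.28 in the longest (2415 to 26397 bp), while in replicates 1 and 2 it was 0.03 and 0.04.

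Of the 35 genes, 11 had a coding length under 1100 bp, a boundary set after seeing the values. On the FPKM scale all 11 were positive within replicate 3, from 0.06 for Npc2 to 0.47 for Atp6v0c, and 8 of the 11 were negative within replicates 1 and 2. The 24 longer genes had 17 negative and 7 positive differences within replicate 3, with Npc1 (3831 bp) lowest at -0.67. Pump genes were shorter, with a median coding length of 1050 bp against 1941 bp for the hydrolases and 1485 bp for the membrane proteins. The part of transcript length, or of RNA quality, in the difference between roles was not tested. Gpnmb (1722 bp) and Atp6v0a1 (2517 bp) were lower in Cd28 KO within both sets of replicates.

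**Figure D5:**
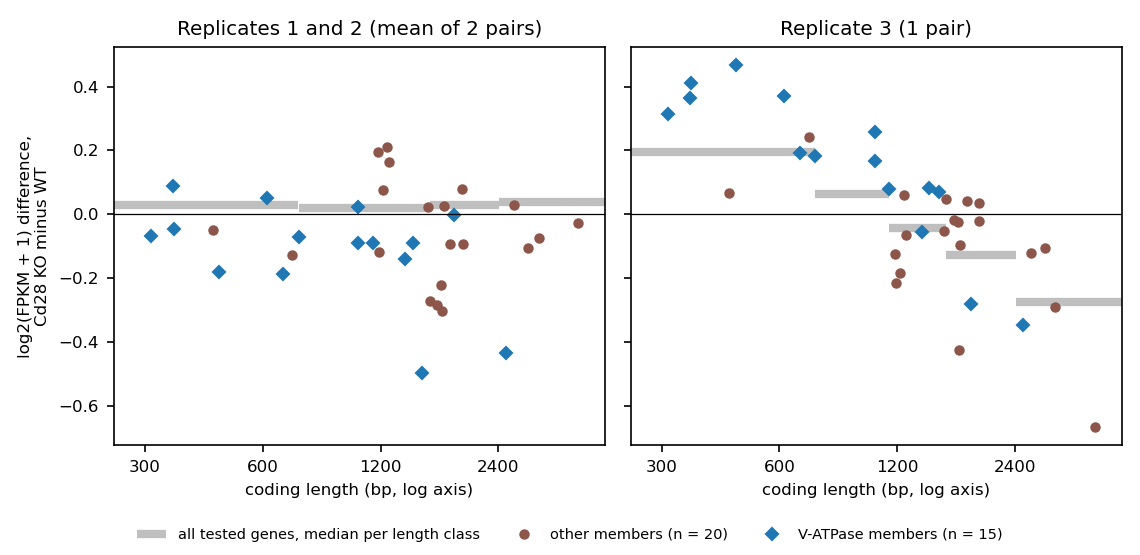
Log2 difference (Cd28 KO minus WT) against coding length on a log axis, within replicates 1 and 2 (left) and within replicate 3 (right), for pump genes (diamonds) and the other members (circles), with the median of all tested genes in 5 length classes (grey bars). In replicate 3 the all-gene medians step down from 0.19 to -0.28 with length and the pump genes run from 0.47 to -0.35, while the grey bars stay at 0.02 to 0.04 in replicates 1 and 2.

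In replicates 1 and 2 alone, 15 of 35 genes were lower in both Cd28 KO libraries than in either WT library, against 18.3% of tested genes, and 3 were higher (Gla, Asah1 and Lamp2), against 25.8%. The 15 were Lipa, Gusb, Man2b1, Psap, Gpnmb, Tfeb, Tfe3 and 8 pump genes, namely Atp6v0a1, Atp6v0c, Atp6v1b2, Atp6v1d, Atp6v1e1, Atp6v1h, Atp6ap1 and Atp6ap2. None was called by limma in these 4 libraries, against 0.698% of tested genes. Before adjustment 5 of 35 had a p under 0.05 there (Gpnmb, Tfeb, Tfe3, Atp6v0a1 and Atp6v1b2), against 12.9% of tested genes, a share close to that of the 35.

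Other genes of the lysosome, from lists of 75 genes that do not include the members, were examined for the same comparison. Of the 68 that were tested, limma called 0, with 46 differences negative, 22 positive (53 and 15 on the TPM scale) and a median log2 of -0.06. On the TPM scale 6633 of all 10172 tested genes were negative. Among 20 further membrane proteins, 18 were negative, or 17 with quantile normalization or median centring, and the median was -0.10, at -0.06 within replicates 1 and 2 and -0.21 within replicate 3. Slc29a3, a nucleoside transporter, had the lowest of these at -0.27 ± 0.20, followed by Sidt2 at -0.22 ± 0.13 and the cation channel Tpcn1 at -0.21 ± 0.15 (SE). The 23 further hydrolases had 14 negative and 9 positive differences (17 and 6 on the TPM scale), with a median of -0.04.

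Ppt1, which removes fatty acids from proteins, and Laptm4a, a membrane protein of late endosomes, had every Cd28 KO value above every WT value. Among the 68 tested genes of these lists, 2 were higher without overlap, against 3.84% of all tested genes. None of the 68 was lower without overlap, against 2.87%. Ppt1 stood at 92.9, 87.4 and 96.6 FPKM against 77.9, 67.9 and 83.9, with a log2 difference of 0.27 ± 0.11 (SE) and an adjusted p of 0.9995 in limma. Laptm4a stood at 198, 191 and 197 FPKM against 175, 163 and 172, with a log2 difference of 0.20. The sulfatase Galns and the amidase Aga had log2 differences of -0.21 and 0.15.

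Genes that sort hydrolases by their mannose 6-phosphate tag had 3 negative and 3 positive differences, or 4 and 2 on the TPM scale. Igf2r, the larger of both mannose 6-phosphate receptors, stood at 20.3, 25.4 and 14.6 FPKM in Cd28 KO and at 24.3, 24.5 and 26.7 in WT, with Cd28 KO replicate 3 low and a log2 difference of -0.34 ± 0.19 (SE). M6pr, the smaller receptor, had a difference of 0.13 and the sorting receptor Sort1 of -0.24. Among 15 tested genes around mTORC1 and the Tfeb family, 8 differences were positive and 7 negative (5 and 10 on the TPM scale), with a median of 0.02. Rptor, the mTORC1 scaffold, had the lowest at -0.31 ± 0.15, Fnip2 followed at -0.24 ± 0.23, and Tfec, a relative of Tfeb, had the highest at 0.18 ± 0.20 (SE). Of the alternative pump subunits, Atp6v0a2 and Atp6v1g2 had log2 differences of -0.17 and -0.10.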

How the data were processed

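RNA from Cd28 KO and WT macrophages (3 libraries each, grouped by title) was sequenced. The deposited values are FPKM, made by the authors with Bowtie and RSEM on GRCm38, per the submitters' processing notes; tool versions and depth were not given there. Files hold genes above 0, so unlisted genes were set to 0. Of 14574 Entrez numbers, 14551 matched RefSeq GRCm38.p6, the source of symbols, coordinates and promoters. Coding lengths are the longest per gene in GENCODE M21. Genes whose mean over the 6 libraries reached 1 FPKM were tested with limma 3.58.1 in R 4.3.3 (empirical Bayes with trend) on log2(FPKM + 1), a scale that understates the change of low genes, with Benjamini-Hochberg adjustment over all genes. Folds given as a percent of WT are ratios of mean FPKM. Alternatives were other pseudocounts, filters and scalings, a replicate block or batch term, replicates 1 and 2 alone and each library left out. The fits were also run on simulated data, with the outcome not given here. Tables were handled in pandas 2.3.3 (Python 3.11.15), permutation tests run in SciPy 1.17.1 with NumPy 2.4.6, and plots drawn in Matplotlib 3.10.9.

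Deviations from the group mean correlated at 0.752, 0.505 and 0.783 for replicates 1, 2 and 3, all above 0.1, so the replicate number was used as a block in an alternative fit. Crossed, replicates 1 and 2 correlated as well (0.663 for Cd28 KO 1 with WT 2, 0.535 for Cd28 KO 2 with WT 1), so the values tie replicate 3 alone to its number, and no label states the pairing. Members, lists and role groups were chosen with earlier results of these data known. Values in every library are given for members without overlap, for the 3 largest absolute differences of each role and for both transcription factors, and the 3 largest of each list of other lysosomal genes are named. Atp6v0c, Gla, Atp6v1a, Atp6v0d2, Tcirg1, Ppt1, Laptm4a, Igf2r and the genes of the replicate splits were shown in more detail after their values were seen.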

Additional observations from a re-analysis of the deposited data

How the results depend on the processing

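None of the 35 genes was called under any of the 17 alternatives, which also reversed no difference of Gpnmb, Lipa, Psap, Tfeb, Tfe3, Atp6v0a1 or Atp6v1b2. Of 595 values of single genes under the alternatives, 50 changed sign, in 16 genes. Changed filters, the replicate block and the batch term leave each log2 difference as it was, so they could not turn a sign. The block with quantile normalization repeats the differences of quantile normalization alone. The counts of all genes called higher and lower, 2 and 0 as reported, were 14 and 4 with the replicate block, 12 and 4 with the replicate block and quantile normalization, 20 and 8 with a batch term for replicate 3, and 40 and 31 with replicates 1 and 2 only. Without a filter 3 genes were called lower. Over all 35 genes the median log2 difference was -0.0805 on the TPM scale and -0.0933 with quantile normalization, with or without the replicate block, and that of membrane proteins was -0.1407 with quantile normalization, with or without the block. The median of all tested genes was -0.0593 on the TPM scale and -0.00896 with quantile normalization.

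Within replicate 3, under scalings added after seeing the data, the medians on the TPM scale were -0.1382 for all 35 genes, -0.28 for hydrolases, -0.3132 for membrane proteins and 0.0102 for the pump. With quantile normalization they were -0.1101 for all 35 and -0.3318 for membrane proteins, and with median centring 0.1163 for all 35.

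Signs turned on the TPM scale for Atp6v0c (-0.0267), Atp6v0e (-0.0021) and Atp6v1d (-0.047). With quantile normalization, with or without the replicate block, they turned for Atp6v0c (-0.0921) and Atp6v1d (-0.0162), and with median centring for Hexa (0.004), Cd63 (0.001) and Atp6ap2 (0.0018). With replicates 1 and 2 only they turned for Hexa (0.0229), Manba (0.0283), Lamp1 (0.0763), Mcoln1 (0.024), Atp6v0c (-0.1826), Atp6v0e (-0.0693), Atp6v1d (-0.071) and Atp6v1f (-0.0456). When each library was left out in turn, the log2 difference ran from -0.0625 to 0.0825 for Hexa, from -0.1128 to 0.3632 for Gla, from -0.1128 to 0.1071 for Manba, from -0.0439 to 0.0243 for Npc2, from -0.0933 to 0.0223 for Grn. It ran from -0.06 to 0.0456 for Lamp1, from -0.0476 to 0.0229 for Mcoln1, from -0.0988 to 0.1064 for Cd63, from -0.1377 to 0.1244 for Atp6v0c, from -0.0424 to 0.1455 for Atp6v0e, and from -0.1537 to 0.0754 for Atp6v1c1, from -0.0684 to 0.0768 for Atp6v1d, from -0.179 to 0.013 for Atp6v1e1, from -0.2131 to 0.0921 for Atp6v1h, from -0.1207 to 0.0723 for Atp6ap2. Without a change of sign, the same ranges were -0.3668 (without WT replicate 3) to -0.0142 (without Cd28 KO replicate 3) for Tfe3, -0.637 (without WT replicate 3) to -0.0847 (without WT replicate 2) for Atp6v1b2, -0.5748 to -0.2622 (the same libraries) for Atp6v0a1, -0.314 to -0.1317 (the same) for Psap, and -0.2813 to -0.0844 (the same) for Tfeb. They were -0.4176 to -0.2537 for Gpnmb and -0.1823 to -0.101 for Lipa. The cause was not tested. With 3 libraries a group, a missing call does not show equal levels. The pairing of replicates 1 and 2 across genotypes rests on their numbers alone.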
